A study of Homo sapiens with 6 samples.

Results

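The genes described here are 10 imprinted genes of 3 chromosomal clusters, measured by mRNA sequencing in SW480 cells with and without knockdown of the splicing factor RBM39. They are IGF2, H19, CDKN1C, PHLDA2 and KCNQ1OT1 of 11p15, DIO3 and MEG3 of 14q32, and SGCE, PEG10 and MEST of 7q. Each was found by its symbol, and all 10 had a row among the 56303 rows of the gene table. The list was chosen on values of the shRBM39 and shCtrl comparison, the read counts and RPKM of these same 6 libraries, so the differences between those groups in the 10 genes are given as a description, without p-values.

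SW480 is an established line of human colon adenocarcinoma cells. The control group (shCtrl, 3 libraries) carried a lentiviral nonsilencing hairpin, and the knockdown group (shRBM39, 3 libraries) carried a lentiviral hairpin directed at RBM39. Cells of both groups had thus been infected, and the paper describes puromycin selection of stable clonal lines. Neither the number of hairpins nor the number of clones behind each group was given, so differences between clones and the knockdown cannot be told apart. The libraries were stranded mRNA libraries with unique molecular identifiers.

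An imprinted gene is transcribed mainly or only from the copy inherited from the mother, or from the copy inherited from the father. The choice is carried by DNA methylation of an imprinting control region, which often governs several genes of a cluster in opposite directions, as for the growth factor gene IGF2, active on the paternal chromosome, and the non-coding RNA H19, active on the maternal one. Such genes act mostly in fetal and placental growth, and loss of imprinting at IGF2 is a known alteration of colorectal tumours. The read counts do not separate the parental copies, so every value below is the sum of both.

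Sequence was printed where it bears on the results that follow. DIO3 had the largest fold difference of the 10 genes, and its promoter is therefore shown first. The set of RefSeq (GRCh38.p14) promoters used here held entries for 4 of the 10 genes, DIO3, H19, MEG3 and MEST. It held none for IGF2, CDKN1C, PHLDA2, KCNQ1OT1, PEG10 and SGCE, which does not show that RefSeq lacks them. The 250 bases before the RefSeq start of DIO3 (chr14:101561245-101561494, plus strand) are given 5′ to 3′, with 3 kinds of motif in capitals. These are GC boxes (GGGCGG, or CCGCCC on the other strand), CCAAT boxes (ATTGG on the other strand) and the TATA box (TATAAA).
DIO3 promoter: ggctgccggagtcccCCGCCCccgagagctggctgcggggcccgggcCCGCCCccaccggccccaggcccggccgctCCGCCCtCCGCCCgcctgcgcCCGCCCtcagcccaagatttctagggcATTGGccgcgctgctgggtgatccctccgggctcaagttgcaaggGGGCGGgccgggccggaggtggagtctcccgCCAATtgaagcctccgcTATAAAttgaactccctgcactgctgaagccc
The window held 6 GC boxes, 2 CCAAT boxes and 1 TATA box, with no overlap between any of them. The TATA box lay 32 bases and the nearer CCAAT box 49 bases before the start. Of 35116 RefSeq promoters of the same length, searched on both strands, 42.6% held a GC box, 32% a CCAAT box and 10.7% a TATA box. The DIO3 window had 22 CpG dinucleotides, against a median of 11, and 28.0% of the promoters had 22 or more. The row of DIO3 in the gene table started 144 bases before the RefSeq start, so the second part of this window lies inside the counted gene.

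SGCE was the only one of the 10 genes with a record in the splicing table, for a skipped exon at chr7:94629719-94629841 (minus strand, hg38, 123 bases), which is exon 2 of the canonical transcript and codes for protein. Its splice sites are shown 5′ to 3′ because the inclusion values given further on refer to this exon, with 10 exon bases in capitals and 20 intron bases in lower case. They span chr7:94629832-94629861 and chr7:94629699-94629728.
SGCE acceptor: tctttcctctttgttttcagTGTACAGTAT
SGCE donor: CCAAAACCTGgtatgttctttgtgaggaaa
The intron ends in ag before the exon and begins with gt after it, the usual dinucleotides of human introns.

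Total counts were between 18042924 and 20428901 reads a library. RBM39 itself had 8894, 9504 and 8831 reads in the shCtrl libraries and 5211, 4743 and 5662 in the shRBM39 libraries, a log2 fold change of -0.67 ± 0.04 (± SE, as for every log2 fold change given here; edgeR adjusted p = 1.24e-16), so each shRBM39 library was lower than each shCtrl library. Of 18243 genes tested over the whole table, 10790 (59.1%) passed an adjusted p of 0.05 in edgeR's quasi-likelihood test, 5327 higher (29.2%) and 5463 lower (29.9%) in shRBM39. With scaling to library totals alone the split was 3775 higher and 7371 lower, and the median log2 fold change of all genes moved from -0.01 to -0.14. Of the 8 colon epithelial markers, all but CDX1 passed the filter on low counts, with EPCAM at 12507, 12241 and 11721 against 11017, 10111 and 12499 reads (shCtrl against shRBM39), KRT8 between 140632 and 179382 reads, and CDX1 at 2 reads or fewer. Of the 7 colon epithelial markers tested, 2 were higher in shRBM39 (KRT8 and KRT18) and 3 lower (VIL1, CDH17 and the intestinal transcription factor CDX2, which was at -2.13 ± 0.09, edgeR adjusted p = 2.44e-20). VIL1 was at -0.09 ± 0.04 (edgeR adjusted p = 0.0298), a call lost in 7 of 16 alternatives, among them without shCtrl replicate 1 or 3 and without shRBM39 replicate 1 or 3 (-0.07 to -0.09). The summed level of the epithelial list was 11634 to 12462 CPM (counts relative to the composition-scaled library total) in shCtrl and 14706 to 15278 in shRBM39. Of 12 markers of other cell types, 6 were tested and 3 were higher in shRBM39 (COL1A1, PECAM1 and VWF), with summed levels of 28.1 to 28.4 and 34.7 to 39.8 CPM. PTPRC and CGA were at 0 in all 6 libraries. These marker changes ran along with the groups, and their part in the values below was not tested.

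Levels are compared between genes per length, as the deposited RPKM (reads scaled by exon length and library total). IGF2 stood first of the 10 in both groups, at 46.5 ± 2.80 RPKM in shCtrl and 181 ± 5.84 RPKM in shRBM39 (mean ± SD, n = 3 each). PEG10 and PHLDA2 followed in shCtrl at 33.1 ± 1.23 and 25.2 ± 1.24 RPKM. MEST, SGCE, DIO3 and CDKN1C lay together between 3.93 and 2.65 RPKM, and the ranges of neighbouring genes in this order overlapped. KCNQ1OT1 and H19 came next at 0.734 ± 0.0145 and 0.241 ± 0.136 RPKM, and MEG3 was last. In shRBM39 the order of mean RPKM changed at 2 places above the group of low genes. PHLDA2 (40.1 ± 0.626) stood before PEG10 (36.6 ± 1.88), and DIO3 moved up, past SGCE and MEST, to 15.3 ± 0.754 RPKM. SGCE and MEST were then the only neighbours whose ranges overlapped. Among all rows of the table, IGF2 ranked 1032 by mean RPKM in shCtrl and 265 in shRBM39, and DIO3 ranked 9527 and 2996.

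**Figure D1:**
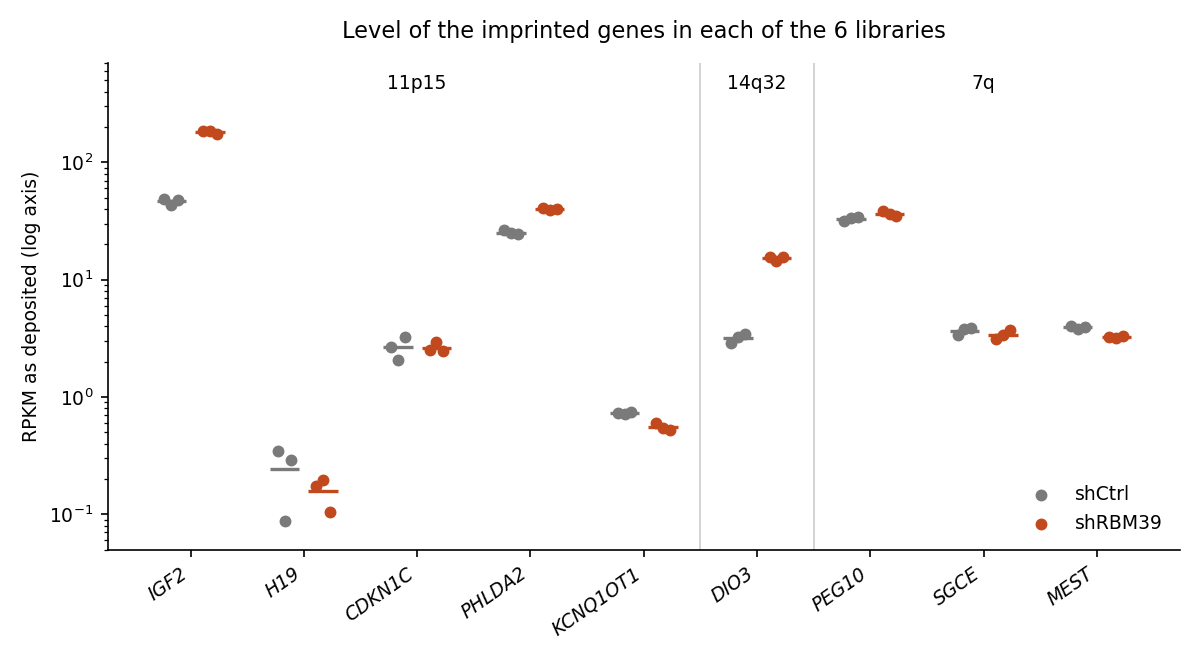
RPKM of 9 imprinted genes on a log axis, 1 point for each library (grey, 3 shCtrl libraries; orange, 3 shRBM39 libraries) with a line at the group mean; MEG3, at 0 or 1 read, is left out. The groups lie farthest apart for IGF2 (46.5 against 181 RPKM) and DIO3 (3.18 against 15.3 RPKM), and they overlap for H19, CDKN1C and SGCE.

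In the 11p15 cluster, the growth factor IGF2 was about 4 times as abundant in the knockdown, PHLDA2 was higher by a smaller step, KCNQ1OT1 was lower, and H19 and CDKN1C had overlapping groups. IGF2 encodes insulin-like growth factor 2, a secreted ligand of the IGF1 receptor (chr11:2129112-2141238, minus strand, GRCh38). It had 5933, 5481 and 5793 reads in the shCtrl libraries and 23586, 20912 and 22128 in the shRBM39 libraries. All 3 knockdown libraries were far above all 3 controls, and the spread within either group was small beside the gap. As deposited this was 48.5, 43.3 and 47.6 RPKM in shCtrl and 184, 185 and 175 RPKM in shRBM39. The fitted log2 fold change was 2.09 ± 0.04 (± SE), a 4.25-fold difference. In bulk RNA, a larger share of cells with the transcript and more transcript per cell cannot be told apart.

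IGF2 shares exons on its own strand with the read-through gene INS-IGF2 and with AC132217.4, and on the opposite strand with IGF2-AS. Whether reads in shared exons were dropped or assigned was not stated, and neither was a strand setting for the counting, so the split between these rows is uncertain. INS-IGF2 had 104, 101 and 109 reads in the shCtrl libraries and 415, 309 and 370 in the shRBM39 libraries, a log2 fold change of 1.93 ± 0.09 (edgeR adjusted p = 9.20e-19). The RPKM of IGF2 was 21.1 ± 0.774 times that of INS-IGF2 in shCtrl and 23.7 ± 2.16 times in shRBM39. AC132217.4 differed in the same direction, with 17, 14 and 13 against 45, 42 and 56 reads and a log2 fold change of 1.83 ± 0.23 (edgeR adjusted p = 2.77e-08). Because INS-IGF2 and AC132217.4 share exons with IGF2, their p-values are not separate evidence for the difference in IGF2. IGF2-AS had at most 6 reads in any library, and MIR483, a microRNA gene within an IGF2 intron, had 1 read in 1 library.

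H19 is a maternally expressed long non-coding RNA that shares an imprinting control region and enhancers with IGF2 (chr11:1995163-2001470). It had 19, 5 and 16 reads in the shCtrl libraries and 10, 10 and 6 in the shRBM39 libraries. These are low counts with overlapping groups, and the log2 fold change of -0.48 ± 0.41 was about as large as its standard error. Without shCtrl replicate 2, the library with 5 reads, it was -0.89 and past the threshold. IGF2 and H19 thus had unlike differences at unlike levels, with IGF2 at 43.3 RPKM or more and H19 at 0.344 RPKM or less in every library.

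The remaining 11p15 genes belong to the centromeric domain controlled through KCNQ1OT1. KCNQ1OT1 is a paternally expressed, unspliced non-coding RNA that silences its neighbours on the same chromosome, and its row was a single stretch of 91667 bases (chr11:2608328-2699994, minus strand), antisense to KCNQ1. It had 1316, 1332 and 1331 reads in the shCtrl libraries and 1121, 890 and 962 in the shRBM39 libraries. Each knockdown library was below each control, with a log2 fold change of -0.29 ± 0.05. The size of this difference moved with the method, from -0.14 with a correction for GC content and length to -0.41 with library totals alone, and was negative in all alternatives run. Without a stated strand setting, reads of unspliced KCNQ1 and of KCNQ1OT1 cannot be told apart in this stretch. KCNQ1 itself, a potassium channel gene, had 10 to 16 reads a library.

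CDKN1C and PHLDA2 are maternally expressed genes of this domain. CDKN1C encodes the cyclin-dependent kinase inhibitor p57 (chr11:2883213-2885881). It had 134, 108 and 162 reads in the shCtrl libraries and 132, 137 and 129 in the shRBM39 libraries. The groups overlapped, the log2 fold change was 0.11 ± 0.13, and the sign turned to -0.01 with library totals alone and to -0.04 without shCtrl replicate 2. PHLDA2, a pleckstrin homology domain protein that restrains placental growth (chr11:2928273-2929455), had 497, 478 and 451 reads in the shCtrl libraries and 796, 682 and 772 in the shRBM39 libraries. All knockdown libraries of PHLDA2 were above all controls, with a log2 fold change of 0.79 ± 0.06 (1.73-fold). The RPKM of PHLDA2 was 9.86 ± 2.23 times that of CDKN1C in shCtrl and 15.3 ± 1.61 times in shRBM39. The summed level of the 5 genes of 11p15 was 349 to 392 CPM in shCtrl and 1239 to 1315 in shRBM39, and IGF2 made up most of it in every library.

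In the 14q32 cluster, DIO3 was higher in the knockdown, its antisense neighbour DIO3OS was higher by less, and the other imprinted genes of the domain were silent or nearly so. DIO3 encodes the type 3 deiodinase, a selenoenzyme that inactivates thyroid hormone, and is a single-exon gene at the telomeric end of the DLK1-DIO3 domain (chr14:101561351-101563452, plus strand). It had 119, 137 and 140 reads in the shCtrl libraries and 673, 546 and 669 in the shRBM39 libraries. The lowest knockdown library had 546 reads and the highest control 140, so the groups were well apart. In RPKM the values were 2.9, 3.22 and 3.43 RPKM in shCtrl and 15.7, 14.4 and 15.7 RPKM in shRBM39. The log2 fold change was 2.39 ± 0.08, a 5.23-fold difference, and 1.96 on the log2(RPKM + 1) scale, where low values are compressed.

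DIO3OS is the antisense transcript that starts beside DIO3. It had 148, 229 and 173 reads in the shCtrl libraries and 298, 203 and 271 in the shRBM39 libraries. The raw reads overlapped, and scaled to library composition the knockdown libraries lay above the controls. Its log2 fold change was 0.62 ± 0.11 (edgeR adjusted p = 5.06e-06), and DIO3 went from 1.97 ± 0.321 times the RPKM of DIO3OS in shCtrl to 6.59 ± 0.575 times in shRBM39. MEG3, the maternally expressed non-coding RNA of the domain, had 0, 1 and 0 reads in shCtrl and 0, 1 and 1 in shRBM39. These counts lie below the 3 counts that a count of 0 still allows. MEG3 did not pass the filter on low counts, so no fold is given. DLK1, a paternally expressed membrane ligand, and MEG8 had no read in any library. RTL1 had 1 read at most, and MEG9 had 3 at most. Of the 13 other genes listed for 14q32, 6 had enough reads for the test, and 50% of these passed, beside 59.1% of all genes tested. Besides DIO3OS, 2 passed it, WDR25 at -0.43 ± 0.15 (edgeR adjusted p = 0.0111) and WARS at -0.11 ± 0.04 (edgeR adjusted p = 0.0273). Both lie centromeric of the imprinted domain, and both lost the call under DESeq2 and in some fits with 1 library left out.

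In the 7q clusters, the differences were small. PEG10 and SGCE start beside each other in 7q21 and are both paternally expressed. PEG10 derives from a retrotransposon and encodes a gag-like protein (chr7:94656325-94669695, plus strand). It had 4153, 4518 and 4444 reads in the shCtrl libraries and 5287, 4355 and 4742 in the shRBM39 libraries. The raw reads of the groups overlapped, and once scaled to library composition the 3 knockdown libraries lay above the 3 controls. Its log2 fold change was 0.27 ± 0.04, and 0.14 with library totals alone. SGCE encodes epsilon-sarcoglycan, a membrane protein (chr7:94585230-94656209, minus strand). It had 168, 196 and 190 reads in the shCtrl libraries and 161, 155 and 193 in the shRBM39 libraries. The groups overlapped at a log2 fold change of 0.01 ± 0.10, and its sign turned under 8 alternatives, down to -0.11. MEST, in 7q32, encodes a hydrolase-fold protein of mesodermal tissue (chr7:130486171-130506296, plus strand). It had 366, 355 and 355 reads in the shCtrl libraries and 308, 265 and 310 in the shRBM39 libraries. The knockdown libraries were a little below the controls, at a log2 fold change of -0.15 ± 0.07 that reached -0.27 and passed the threshold with library totals alone. MEST overlaps MESTIT1 and COPG2 on the opposite strand. MESTIT1 had 22 to 38 reads a library and COPG2 had 178, 194 and 175 against 239, 185 and 246 reads (edgeR adjusted p = 1.18e-04).

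**Figure D2:**
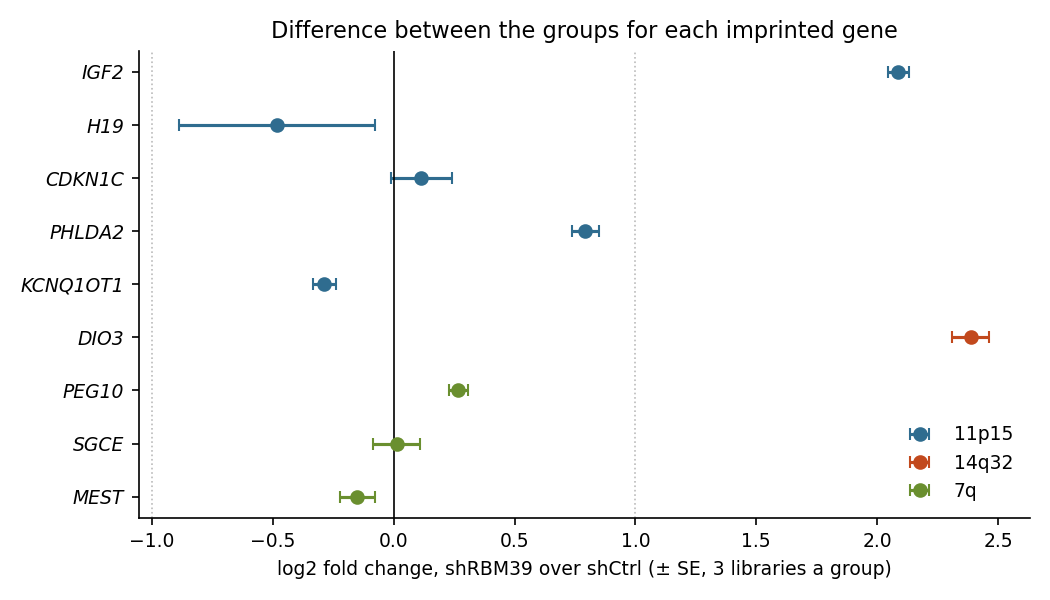
Log2 fold change of each imprinted gene, shRBM39 over shCtrl, as points coloured by cluster, with standard errors derived from the edgeR F statistic as bars. Dotted lines mark 2-fold differences. DIO3 (2.39) and IGF2 (2.09) lie beyond the 2-fold line, PHLDA2 (0.79) lies short of it, and the 3 genes of 7q lie between -0.15 and 0.27.

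Over the clusters, the log2 fold changes ran from -0.48 to 2.09 for the 5 genes of 11p15, with a median of 0.11. The 3 genes of 7q ran from -0.15 to 0.27, with a median of 0.01. The single tested gene of 14q32 was DIO3. The median over all 18243 genes tested was -0.01 and their median absolute log2 fold change was 0.30. Of the 9 genes tested, 5 passed the threshold that 59.1% of all genes passed, IGF2, PHLDA2, DIO3 and PEG10 as higher and KCNQ1OT1 as lower. IGF2 and DIO3 were past 2-fold, as were 6.52% of all genes in either direction, and both were also past 4-fold, as were 0.241% of all genes on the higher side. The same contrast had served to choose the genes, and nothing was read from these counts. By parental copy, 3 of the 6 paternally expressed genes passed as higher and 1 as lower, and of the 3 maternally expressed genes tested, PHLDA2 alone passed. In 6 of the 9 genes the groups did not overlap in scaled CPM, against 63.3% of all genes.

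The single splicing record among the 10 genes concerned SGCE exon 2, whose splice sites are shown above. The deposited splicing table gave this exon inclusion levels (the fraction of transcripts that hold it) of 0.698, 0.507 and 0.804 for 1 unnamed group of libraries and of 0.919, 0.782 and 1.0 for the other. The ranges overlapped, and each value rested on 9 to 24 reads, inclusion and skipping together. Nothing in the table ties either group to the knockdown. It holds only records past a threshold set by the authors, so a gene without a record was not shown to be spliced alike. The neighbour NAP1L4, a nucleosome assembly protein of 11p15, had a record for a 38-base exon with 287 to 387 reads a value. That exon was included at 0.196, 0.21 and 0.172 in the first group, below the 0.312, 0.354 and 0.296 of the second.

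Genes within 500 kb of the 10 genes were examined for differences along the clusters. Around 11p15, 82 further rows lay in reach, 30 were tested, and 12 were higher and 13 lower. That is 83.3% called, beside 59.1% of all genes tested (29.2% higher and 29.9% lower). LSP1, a leukocyte actin-binding protein gene, was the most increased, with 71, 67 and 61 reads in the shCtrl libraries and 379, 325 and 377 in the shRBM39 libraries and a log2 fold change of 2.57 ± 0.10 (edgeR adjusted p = 1.59e-21). Next came INS-IGF2 and AC132217.4, which overlap IGF2, and the non-coding AC068580.7 at 1.49 ± 0.22 (edgeR adjusted p = 4.42e-07). The most decreased were DUSP8, a phosphatase of MAP kinases, at -2.06 ± 0.25 (edgeR adjusted p = 8.38e-09), and KRTAP5-1 at -1.57 ± 0.39 (edgeR adjusted p = 8.08e-04). Both dropped out of the fit that asked for 10 counts in every library, so each fell below 10 reads in some library. Over 15 alternatives DUSP8 ran from -2.19 to -0.51 and KRTAP5-1 from -1.86 to -0.60. MRPL23-AS1, close to H19, was at -1.44 ± 0.23 (edgeR adjusted p = 2.15e-06), and TSPAN32, a tetraspanin gene between the 2 imprinted domains of 11p15, at -1.0 ± 0.08 (edgeR adjusted p = 3.99e-13). Genes on both sides of IGF2 thus differed in both directions, as genes did over the whole table.

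Around 14q32, 148 further rows lay in reach but 111 had no read in any library. Of 18 tested, DIO3OS was higher, and WDR25 and WARS were lower. That is 16.7% called, beside 59.1% of all genes tested. The count depended on the processing, with 1 higher and 10 lower under library totals alone, 1 and 12 on both RPKM scales, and 3 and 4 with a correction for GC content and length, where DYNC1H1 and PPP2R5C joined DIO3OS. WARS lost its call in 7 of 16 alternatives, among them without shCtrl replicate 1 and without shRBM39 replicate 1 or 3 (-0.07 to -0.10), and WDR25 without shRBM39 replicate 2 (-0.36) and under DESeq2 (-0.42). Around PEG10 and SGCE, 2 of 14 rows were tested, and PPP1R9A, a neuronal actin-binding protein gene, was lower at -0.75 ± 0.08 (edgeR adjusted p = 2.46e-10). Around MEST, 14 of 36 rows were tested, with 5 higher and 1 lower (42.9% called). The higher ones were KLHDC10 at 0.21 ± 0.09 (edgeR adjusted p = 0.0322), COPG2 at 0.43 ± 0.09 (edgeR adjusted p = 1.18e-04), the row named MIR29A at 1.18 ± 0.30 (edgeR adjusted p = 8.52e-04), TSGA13 at 0.79 ± 0.22 (edgeR adjusted p = 0.00262) and CEP41, a centrosomal protein gene, at 0.44 ± 0.08 (edgeR adjusted p = 5.15e-06). KLHDC10 lost its call in 9 of 16 alternatives, among them without shCtrl replicate 1 or 2 and without shRBM39 replicate 1 or 2 (0.18 to 0.22). The lower one was the non-coding LINC-PINT at -0.78 ± 0.15 (edgeR adjusted p = 3.01e-05). The MIR29A row is 6681 bases long and holds 7 to 30 reads a library, so it does not measure the mature microRNA.

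**Figure D3:**
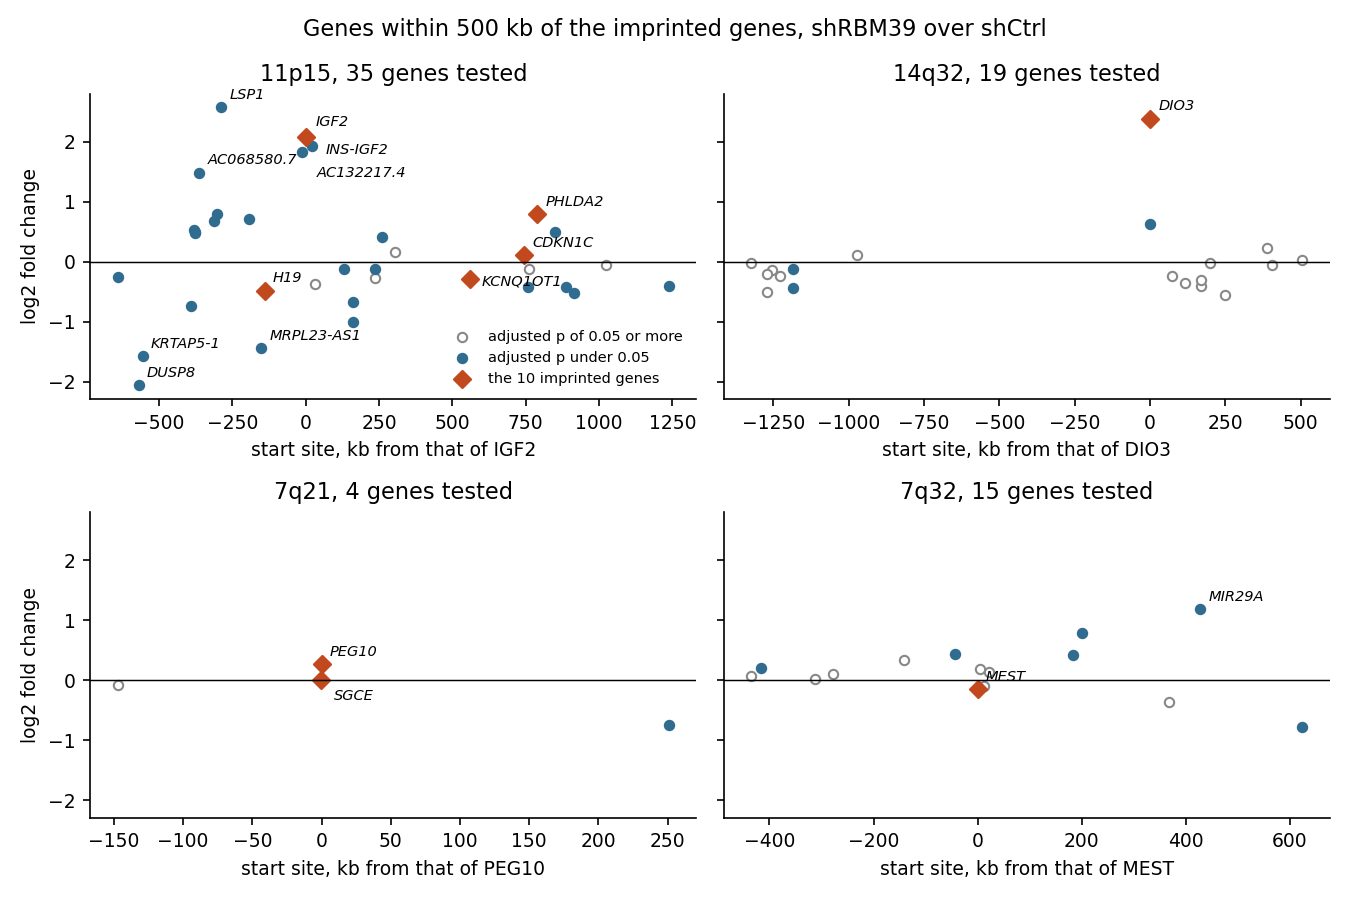
Log2 fold change (shRBM39 over shCtrl) of every tested gene within 500 kb of the imprinted genes, by the distance of its start site in kb from that of IGF2, DIO3, PEG10 or MEST along the chromosome; orange diamonds are the imprinted genes, filled blue points passed an adjusted p of 0.05 and open points did not. Points of both signs surround IGF2, whereas near DIO3 the raised neighbour with a filled point is DIO3OS (0.62).

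Of the other genes listed as imprinted or lying in the 11p15 clusters, 15 were tested, 4 were higher and 7 lower, with a median log2 fold change of -0.13, beside 29.2% higher, 29.9% lower and a median of -0.01 over all genes tested. INS-IGF2 was followed among the higher ones by MRPL23, a mitochondrial ribosomal protein gene, at 0.72 ± 0.07 (edgeR adjusted p = 8.32e-11), NAP1L4 at 0.49 ± 0.04 (edgeR adjusted p = 1.62e-13) and TSSC4 at 0.41 ± 0.07 (edgeR adjusted p = 2.87e-06). Besides MRPL23-AS1 and TSPAN32, the lower ones included CARS, the cysteinyl-tRNA synthetase gene, at -0.52 ± 0.04 (edgeR adjusted p = 1.47e-12), and SLC22A18, a transporter gene next to PHLDA2, at -0.42 ± 0.15 (edgeR adjusted p = 0.0139). The call of SLC22A18 was lost without shCtrl replicate 3, at -0.28, and under DESeq2, at -0.41. The insulin gene INS had no read. On 7q, 12 of the other listed genes were tested, 3 were higher (COPG2, CEP41 and TSGA13) and 2 lower (PPP1R9A and ASB4), with a median of 0.05.

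Among 40 genes listed as imprinted outside these clusters, 23 were tested and 7 were higher and 9 lower, with a median of -0.14. That is 69.6% called, beside 59.1% of all genes tested. The list was drawn up by hand, and the reads do not show which of its genes are imprinted in these cells. Library totals alone gave 4 higher and 11 lower, both RPKM scales 4 and 9, and the GC and length correction 8 and 6. TP73, a p53 family transcription factor gene, had 73, 93 and 66 reads in the shCtrl libraries and 198, 181 and 205 in the shRBM39 libraries (1.47 ± 0.11; edgeR adjusted p = 3.33e-13). WT1, which encodes a zinc finger transcription factor, was at 0.81 ± 0.09 (edgeR adjusted p = 9.94e-10), DDC at 0.59 ± 0.20 (edgeR adjusted p = 0.0125) and SNHG14, the host transcript of the 15q11 snoRNAs, at 0.45 ± 0.15 (edgeR adjusted p = 0.00847). The call of DDC was lost without shRBM39 replicate 2 (0.45) and under DESeq2 (0.61). SNHG14 lost its call in 5 of 16 alternatives, at 0.32 without shCtrl replicate 3, 0.46 under DESeq2, 0.32 with library totals alone, 0.03 on the log2(RPKM + 1) scale and 0.17 on the log2(RPKM + 0.1) scale. GRB10, an adaptor protein that dampens insulin and IGF receptor signalling, had 296, 298 and 211 reads in the shCtrl libraries and 84, 93 and 77 in the shRBM39 libraries. It was the most decreased of the list at -1.53 ± 0.12 (edgeR adjusted p = 8.85e-13). IGF2R, the receptor that clears IGF2, was at -0.53 ± 0.04 (edgeR adjusted p = 1.52e-13), INPP5F at -0.52 ± 0.09 (edgeR adjusted p = 1.56e-05) and SLC22A3 at -0.49 ± 0.12 (edgeR adjusted p = 5.14e-04). SNRPN, SNURF, NDN, MAGEL2, PEG3, ZIM2 and NAP1L5 had no read in any library.

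Of 24 tested factors that act on imprints or on DNA methylation, 11 were higher and 5 lower, with a median of 0.08. That is 66.7% called, near the 59.1% of all genes tested. The list holds both methyltransferases and methylcytosine oxidases, so the split has no single meaning. The split was 8 and 8 with library totals alone, 7 and 6 on both RPKM scales, and 14 and 4 with the GC and length correction. UHRF1, which brings the maintenance methyltransferase to newly replicated DNA, had 2848, 3088 and 2800 reads in the shCtrl libraries and 7801, 6504 and 7277 in the shRBM39 libraries (1.44 ± 0.04; edgeR adjusted p = 1.77e-25). The maintenance methyltransferase DNMT1 itself was at 0.47 ± 0.04 (edgeR adjusted p = 3.14e-13), the cohesin subunit SMC1A at 0.48 ± 0.04 (edgeR adjusted p = 2.81e-13) and the Polycomb subunit SUZ12 at 0.40 ± 0.05 (edgeR adjusted p = 5.29e-09). ARID4A, a chromatin protein that acts on imprints, was at -0.75 ± 0.05 (edgeR adjusted p = 1.98e-14), and the methylcytosine oxidases TET2 and TET1 at -0.58 ± 0.10 (edgeR adjusted p = 1.15e-05) and -0.43 ± 0.08 (edgeR adjusted p = 3.90e-05). The Polycomb methyltransferase EZH2 was at -0.29 ± 0.04 (edgeR adjusted p = 3.64e-08). CTCF, the insulator protein bound at the IGF2 and H19 control region, was higher by a small step, at 0.13 ± 0.04 (edgeR adjusted p = 0.00258), a call lost with library totals alone and on both RPKM scales (0.0083 to 0.0091). ZFP57, which protects imprints in the embryo, had at most 1 read. The splicing table held records for EHMT1, EHMT2, DNMT3B, SUZ12, TET1, TET2 and EED of this list. The best covered was exon 10 of EHMT2, a histone H3 lysine methyltransferase, with 118 to 146 reads a value and inclusion of 0.391, 0.355 and 0.492 in the first group, below the 0.593, 0.611 and 0.64 of the second.

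The genes that act with the IGF2 and DIO3 products were also listed. Of 16 tested, 4 were higher and 9 lower, with a median of -0.17. Over all genes tested, 29.2% were higher and 29.9% lower, with a median of -0.01. Of the receptors, the insulin receptor INSR was at -0.68 ± 0.09 (edgeR adjusted p = 1.45e-07) and IGF1R at -0.19 ± 0.05 (edgeR adjusted p = 0.00200), both lower, as was IGF2R. The call of IGF1R was lost with the GC and length correction (-0.04). Of the binding proteins, IGFBP6, which prefers IGF2 as its ligand, had 816, 862 and 905 reads in the shCtrl libraries and 1650, 1539 and 1599 in the shRBM39 libraries (1.03 ± 0.05; edgeR adjusted p = 3.97e-19). IGFBP4 was at 0.40 ± 0.04 (edgeR adjusted p = 2.08e-10) and IGFBP1 at -1.25 ± 0.22 (edgeR adjusted p = 9.14e-06). The 3 RNA-binding proteins named for IGF2 mRNA did not go one way, with IGF2BP1 at 0.61 ± 0.04 (edgeR adjusted p = 2.86e-14), IGF2BP2 at -0.45 ± 0.04 (edgeR adjusted p = 1.43e-12) and IGF2BP3 at -0.51 ± 0.06 (edgeR adjusted p = 2.73e-09). For thyroid hormone, the activating deiodinases DIO1 and DIO2 had 2 reads or fewer in every library, so DIO3 was the only deiodinase measured above a few reads. The nuclear receptor THRA was at 0.21 ± 0.04 (edgeR adjusted p = 9.40e-05), a call lost with library totals alone and on both RPKM scales, and THRB had 8 reads at most. SECISBP2, which lets ribosomes insert selenocysteine into proteins such as DIO3, was lower, with 848, 970 and 852 reads in the shCtrl libraries and 619, 558 and 641 in the shRBM39 libraries (-0.42 ± 0.05; edgeR adjusted p = 1.85e-08).

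**Figure D4:**
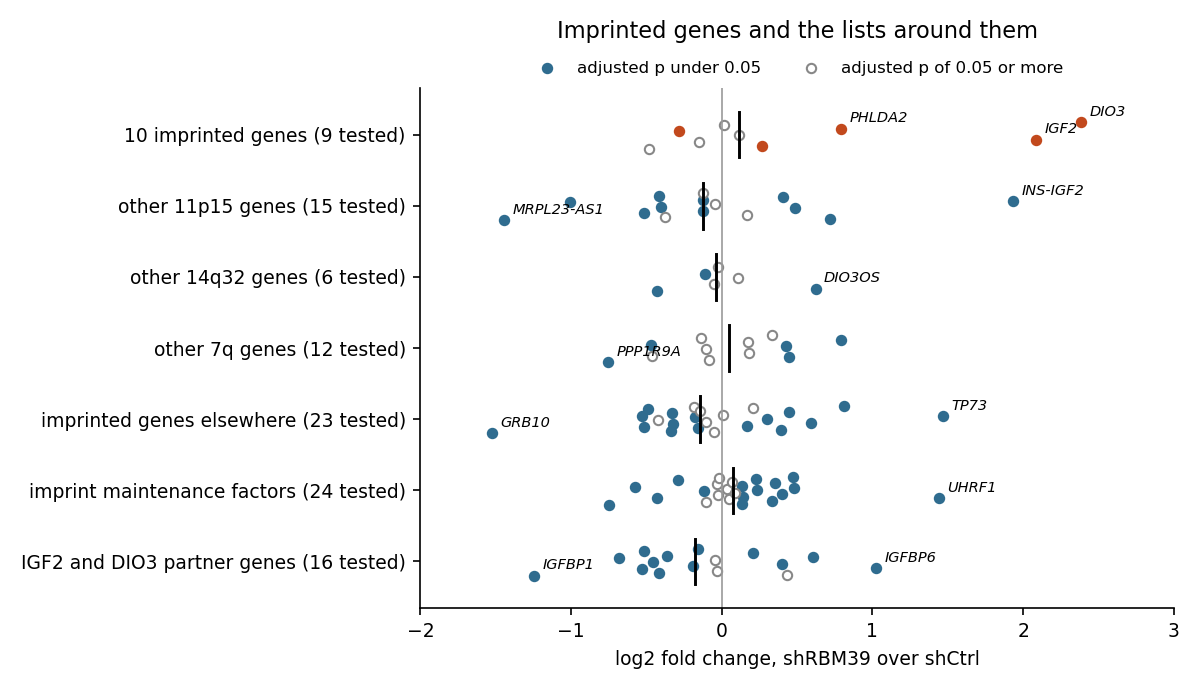
Log2 fold change (shRBM39 over shCtrl) of each tested gene in 7 lists, with filled points for an adjusted p under 0.05, open points for the rest, and a black line at the list's median; the 5 of the 10 imprinted genes that passed are in orange. IGF2 (2.09) and DIO3 (2.39) lie to the right of every other listed gene, with INS-IGF2 next (1.93), and the medians of the 7 lists lie between -0.17 and 0.11.

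The genes whose pattern over the 6 libraries was most like that of DIO3 were sought over the 12057 genes that averaged 5 CPM or more, by the root mean square difference of log2(CPM + 0.5) centred on each gene's own shCtrl mean. They were SFRP5 (0.106), a secreted antagonist of Wnt ligands, LSP1 (0.143) and ARHGDIB (0.171). SFRP5 had 219, 251 and 209 reads in the shCtrl libraries and 1210, 953 and 1130 in the shRBM39 libraries. For IGF2 they were STMN3 (0.124), a stathmin family gene, MUC6 (0.187), a gastric mucin gene of 11p15, and DIO3 (0.188). STMN3 had 254, 261 and 263 reads in the shCtrl libraries and 945, 865 and 977 in the shRBM39 libraries, and MUC6 had 145, 172 and 146 reads in the shCtrl libraries and 631, 481 and 534 in the shRBM39 libraries. The libraries form 2 groups, so likeness on this measure is mainly likeness of the group difference, and it ranks genes without testing them.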

How the data were processed

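Stranded mRNA libraries of SW480 cells, 3 shCtrl and 3 shRBM39, were sequenced by the study. Per the submitters' processing notes, the authors used Trimmomatic 0.36, STAR 2.5.3a, featureCounts of Subread 1.5.1, edgeR 3.12.1 and GRCh38. The deposited gene table by the authors holds read counts (raw, whole numbers) and RPKM per library; RPKM recomputed from counts, length and library totals matched the deposited values to 5.11e-15 of their size. Strand setting, treatment of shared exons and use of the molecular identifiers in counting are not given in the sources used here. The control columns carry the name NC and were taken as shCtrl, the only control group. The deposited rMATS table of the authors gives reads and inclusion levels (fractions) for 2 unnamed groups, restricted to records past their threshold; its columns of p-values, FDR and level differences were not used.

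The quasi-likelihood F-test of edgeR 4.0.16 (R 4.3.3) was run on the counts after filterByExpr and TMM scaling, with Benjamini-Hochberg adjustment over all 18243 genes and a threshold of 0.05. TMM factors were 1.03 to 1.05 in shCtrl and 0.955 to 0.960 in shRBM39, and the counts per 1e6 reads (CPM) in the text are scaled by them. The SE of a log2 fold change was taken as its absolute value divided by the square root of the F statistic. DESeq2 gave larger ones for DIO3 (0.111 against 0.0773), H19 (0.592 against 0.405) and IGF2 (0.0444 against 0.0432). The biological coefficient of variation was 0.0350. Replicates differed by more than sampling noise (chi-square per degree of freedom 2.01 to 3.90). The study describes the 3 libraries of a group as replicate experiments, and the labels do not say how separate the cultures were; p-values measure the spread between these libraries. Counting intervals were not used, and the floor for a count of 0 is 3 counts. Alternatives were DESeq2 1.42.0, upper-quartile and library-total scaling, other filters, limma 3.58.1 on log2(RPKM + 1) and log2(RPKM + 0.1), a replicate block, a GC and length correction (mgcv 1.9.3), a threshold of 0.01 and each library left out. Counts were simulated for the shRBM39 and shCtrl comparison (18004 genes, 200 changed 2-fold). Of the changed genes 98.5% were recovered, and 0.0674% of the unchanged were called. With a GC trend added in shRBM39, 23.2% of the unchanged were called without the GC and length correction and 0.0562% with it. In the data 59.1% of the genes tested passed, far more than were changed here, so these rates do not carry over.

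The 10 genes and all lists were chosen with earlier results of these data known. Named are the 10 genes and RBM39. From each list and neighbourhood come called genes without overlap between groups. These are up to 4 with the highest and up to 4 with the lowest log2 fold change. Listed genes outside these are named with their values, as are the 3 genes nearest in pattern to each of DIO3 and IGF2. For most counts of 5 or fewer every gene is named, but of the 5 lower imprint factors only 4 are. CTCF, IGF1R, IGF2BP2, SECISBP2, DYNC1H1, PPP2R5C and the EHMT2 and NAP1L4 exons were chosen after their values were seen. Gene positions come from the gene table (GRCh38), whose exons matched GENCODE release 44 in 95.9% of 105599 sampled; promoters come from RefSeq, and splice sites from the hg38 sequence.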

Additional observations from a re-analysis of the deposited data

How the results depend on the processing

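IGF2, DIO3 and PHLDA2 kept their direction and their side of the threshold in all alternatives run, with log2 fold changes of 1.94 to 2.15, 1.96 to 2.44 and 0.65 to 0.85. The sign of CDKN1C turned with library totals alone (-0.00959) and ranged from -0.0441 to 0.280 with 1 library left out. The sign of SGCE turned with upper-quartile scaling (-0.0193), library totals alone (-0.110), log2(RPKM + 1) (-0.0868), log2(RPKM + 0.1) (-0.109), the GC and length correction (-0.0520) and that correction with the block (-0.0510), and ranged from -0.060 to 0.0868 with 1 library left out; the cause was not tested. H19 without shCtrl replicate 2 was at -0.89. MEST passed the threshold with upper-quartile scaling, library totals alone and both RPKM scales (-0.18 to -0.27). The 3 other 14q32 genes called became 1 under DESeq2 and at a threshold of 0.01, 5 with library totals alone, log2(RPKM + 1) and log2(RPKM + 0.1), and 2 to 3 with 1 library left out; with the GC and length correction 4 were called, 3 higher and 1 lower, in place of 1 higher and 2 lower, and 2 without a filter, 1 in each direction. The neighbours within 500 kb, 18 higher and 17 lower, were 17 and 26 with library totals alone and 17 and 28 on both RPKM scales. Over all genes, calls ranged from 8481 (DESeq2) to 11146 (library totals alone), and their higher share was 49.4%, against 33.9% with library totals alone and 33.6% on both RPKM scales. Of 1037 values of 65 other named genes under the alternatives, 995 kept their call, 42 lost it and 0 changed sign. Most of these genes were named because they were called without overlap in the main fit of the same libraries. That choice favours kept calls and signs, so the count does not describe unselected genes.

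The replicate numbers did not pair the samples: same-numbered libraries correlated at 0.00612, -0.0282 and 0.000114 in their deviations from the group means. With the replicate block, 10810 genes were called in place of 10790, 5 of the 10 imprinted genes again passed, and no list count changed. With totals of 18042924 to 20428901 reads a library, H19 and MEG3 were at the limit of what the depth resolves.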
